A study of Mus musculus with 10 samples.

Results

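Sepp1, Selo and 8 further selenoprotein genes or genes of selenoprotein synthesis were followed through RNA-seq libraries of mouse renal proximal tubule cells. The other 8 were Selt, Selk, Selm, Sepn1, Sepw1, Sephs1, Sephs2 and Secisbp2. They were taken by symbol from the 46509 gene rows of the deposited tables, and each of the 10 symbols had a row. The list was drawn up with the levels of Sepp1 and Selo in these libraries already known, so their differences are given as a description. The glutathione peroxidases and thioredoxin reductases, which also carry selenocysteine, were left out of the list and are described only for comparison.

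The study concerned FoxO1 and FoxO3, forkhead transcription factors restrained by AKT signalling, in cells given the ligand Wnt3a with or without oxidative stress by H2O2. It held 10 libraries, 1 for each of 10 groups. Libraries 7, 8, 9 and 10 all received 100 uM H2O2 and Wnt3a at 20 ng/mL. Library 7 carried scramble siRNA, library 8 FoxO1 siRNA, library 9 was labelled FoxO3 siRNA, and library 10 carried both siRNAs. Libraries 3 and 4 received Wnt3a at 20 ng/mL and no H2O2, with scramble siRNA in library 3 and both siRNAs in library 4. Libraries 1 and 2 received neither siRNA nor H2O2, with Wnt diluting buffer in library 1 and Wnt3a at 20 ng/mL in library 2. H2O2 at 100 uM without siRNA was given to libraries 5 and 6, with Wnt3a at 20 ng/mL in library 6, while no Wnt treatment is entered for library 5. All groups were the same conditionally immortalized cells. They came from mice labelled as a mixed strain with N2 FVB, in which a floxed TbRII line had been crossed with the Immorto-mouse. That mouse carries a temperature-sensitive large T antigen, so the cells grow at 33 °C with interferon gamma and are differentiated at 37 °C without it. Neither the age of the mice nor whether the cells are 1 clone is stated in the labels.

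Selenoproteins carry selenocysteine, the amino acid in which selenium takes the place of the sulphur of cysteine. Selenocysteine is coded by TGA, otherwise a stop codon. Reading it through needs a stem-loop in the mRNA (SECIS), the protein that binds it (the product of Secisbp2) and a dedicated tRNA, whose selenium is donated by the product of Sephs2. Selenoprotein P, the product of Sepp1, is secreted mainly by the liver, carries selenium in plasma and is taken up in the renal proximal tubule through megalin, the product of Lrp2. In human hepatoma cells FoxO1 activates the SEPP1 promoter. The remaining proteins of the list are mostly enzymes of the endoplasmic reticulum, cytosol or mitochondria that act on thiols or, for Selo, transfer AMP to proteins.

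The selenocysteine codons are shown because they define these genes and set the first gene of the list apart from the others. They were read from GENCODE M21 coding transcripts on GRCm38, the build of the files (mm10), on the coding strand, with each TGA read as selenocysteine in capitals. Sepp1 held 10 such codons among 380, at codons 59, 259, 277, 318, 330, 352, 366, 368, 375 and 377. The first lies apart from the others, at chr15:3274848-3274850 (sequence shown from chr15:3274836-3274862), and the last 5 stand within 78 bases at chr15:3279621-3279698. Each of the other 7 selenoprotein genes held 1. It was codon 665 of 667 in Selo, 92 of 94 in Selk, 49 of 195 in Selt, 48 of 145 in Selm, 13 of 88 in Sepw1, 428 of 557 in Sepn1 and 63 of 452 in Sephs2. In Selo and Selk it thus stands close to the end of the protein, and their sequences below run into the stop codon. In Selo, Selt, Selm and Sepw1 a cysteine codon (tgt) stood 3 codons before it, the spacing of the redox motif of thioredoxin-like proteins. In the first window of Sepp1 a cysteine codon stood 3 codons after it. Sephs1 (392 codons) and Secisbp2 (858 codons) held none.
Sepp1, first codon: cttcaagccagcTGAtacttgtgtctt
Sepp1, last 5 codons: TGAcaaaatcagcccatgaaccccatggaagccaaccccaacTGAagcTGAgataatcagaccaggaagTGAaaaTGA
Selo: ctctgtgtaacaTGAtcctcataa
Selt: atttgtgtatccTGAgggtaccggcgg
Selm: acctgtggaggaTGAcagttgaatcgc
Sepw1: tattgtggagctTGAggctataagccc
Selk: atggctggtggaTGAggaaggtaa
Sepn1: gaccagtcctgcTGAggttccgggcgg
Sephs2: ggcatgaagggcTGAggctgcaaggtc

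Levels are FPKM, a fragment count scaled to transcript length and library size, as the authors computed them. A ratio, written 8/7 for library 8 over library 7, is the log2 difference after 1 FPKM was added to each level. Genes under 1 FPKM in both libraries of a pair were set aside as not measured, and the size rule was a ratio of 0.58 (1.5-fold) either way. With 1 library per group there is no replicate spread, and no test between conditions was made. The spread over genes of 5 FPKM or more stands in for it as a description only: 95% of those genes lay between -0.31 and 0.32 in 8/7, between -0.45 and 0.41 in 9/7, and between -0.35 and 0.31 in 10/7. The depth of the libraries is unknown, but weakly expressed genes put libraries 8, 9 and 10 at 0.883, 0.919 and 0.911 of the depth of library 7. Foxo1 stood at 7.92, 3.66, 8.54 and 4.67 FPKM in libraries 7, 8, 9 and 10, so it was lower in both libraries given its siRNA. Foxo3 stood at 19.7, 17.7, 19.9 and 17.4 FPKM, with ratios of -0.14, 0.01 and -0.17, so it was not lower in the library labelled FoxO3 siRNA. In library 10, given both siRNAs, its ratio of -0.17 lay within the range of 95% of genes. That ratio was also close to the -0.14 of library 8, given FoxO1 siRNA alone, so no clear loss of Foxo3 RNA is seen in library 10 either. Of 16 proximal tubule markers 5 were measured, led by Pax8 and Cdh16. The defining transporters Slc22a6 and Slc22a8 were listed at 0 in all 4 libraries, Slc34a1 in 3 of them. The 16 summed to 211, 202, 227 and 204 FPKM in libraries 7, 8, 9 and 10. None of 6 hepatocyte markers was measured, and their sum was 0.302 FPKM at most.

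Sepp1, the plasma selenium carrier, stood at 55.6 FPKM in library 7, 31.7 in library 8, 40.5 in library 9 and 174 in library 10. It was highest where both siRNAs were given. It was lower than the scramble library where 1 siRNA was given, past the size rule in library 8 but not in library 9. Its ratio was -0.79 in 8/7, -0.45 in 9/7 and 1.62 in 10/7. The 9/7 ratio (-0.4507) also lay just within the spread over genes described above, whose lower end in 9/7 was -0.4513. Library 8 held 57.0% and library 9 held 72.7% of the level of library 7, while library 10 held 312%. Against the single-siRNA libraries directly, library 10 was higher by 2.42 (log2) than library 8 and by 2.07 than library 9. Between those single-siRNA libraries the difference was smaller, 0.34 in 9/8. In a culture of this kind, more cells of a type and more RNA per cell cannot be told apart. The hepatocyte marker Alb stood at 0.0236, 0, 0 and 0.292 FPKM in libraries 7, 8, 9 and 10, under the minimum of 1 FPKM in each. The other 5 of the 6 hepatocyte markers were listed at 0 in library 7. In library 10 Ttr, Apoa1, Apob and Serpina1a were listed at 0 and Fgb at 0.0103 FPKM, so they did not share the higher level of Alb.

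The same pair of siRNAs without H2O2 is seen in libraries 3 and 4, but only for genes the authors had selected by fold. Sepp1 is in that joined list of 1637 genes, at 26.3 FPKM with scramble siRNA in library 3 and 40.7 with both siRNAs in library 4. The ratio 4/3 was 0.61, or 1.55-fold, in the same direction as 10/7 and smaller. By size, upward ratios first, Sepp1 was gene 55 of the list in 4/3 and gene 4 in 10/7. The list holds only genes with an absolute log2 fold above 0.5 in both pairs, so the selection fixed that both ratios are wide, though not that they share a direction. The difference between the 2 ratios was not tested. The levels of Foxo1 and Foxo3 in libraries 3 and 4 are not given here.

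Selo encodes a mitochondrial pseudokinase that transfers AMP to other proteins. It stood at 6.37 FPKM in library 7, 16.3 in library 8, 32.3 in library 9 and 6.68 in library 10. It was thus higher than in library 7 in each library of a single siRNA, and near the scramble level where both were given. Library 6, with the same H2O2 and Wnt3a but no siRNA, held 28.8 FPKM in a separately scaled joined list. That is above the scramble level of library 7, and the reason for this gap was not tested. The ratios were 1.23 in 8/7, 2.17 in 9/7 and 0.06 in 10/7, or 2.56-fold, 5.06-fold and 1.05-fold. Library 9 exceeded library 8 by 0.94 (log2), and library 10 lay below library 8 with a ratio of -1.18 and below library 9 with -2.12. In the 3 libraries with FoxO siRNA the order of Sepp1 was 10, 9, 8 from the top, and that of Selo was 9, 8, 10. Library 9 also held the highest level of Aqp1, a proximal tubule water channel, at 14.3, 18.1, 37.2 and 23.5 FPKM in libraries 7, 8, 9 and 10. Among the measured proximal tubule markers only Aqp1 was past the size rule, with 1.32 in 9/7 and 0.68 in 10/7. The other 4 had 9/7 ratios of 0.13 (Lrp2), -0.03 (Slc4a4), 0.003 (Pax8) and -0.18 (Cdh16). The part of cell state in the level of Selo was not tested.

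Cells without siRNA gave a second view of Selo, in the joined list of 1852 genes selected for a log2 ratio above 0.5 in 2/1. Selo stood at 5.33 FPKM with Wnt diluting buffer in library 1 and 25.9 with Wnt3a in library 2. That ratio of 2.09, or 4.85-fold, ranked 16 of 1852. Under H2O2 it stood at 16.4 FPKM in library 5 and 28.8 with Wnt3a in library 6, a ratio of 0.77, or 1.75-fold, which ranked 149. The median over the list was 0.22 in 2/1 and 0.02 in 6/5. The gene was thus higher in the Wnt3a library of both pairs, by less under H2O2. The direction in 2/1 is what the list was selected on. No Wnt treatment is entered for library 5, so 6/5 is not known to match 2/1 in its control. Selo is not in the other joined list and Sepp1 is not in this one, and the remaining 8 genes are in neither. Their levels in libraries 1 to 6 were not analysed here.

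**Figure D1:**
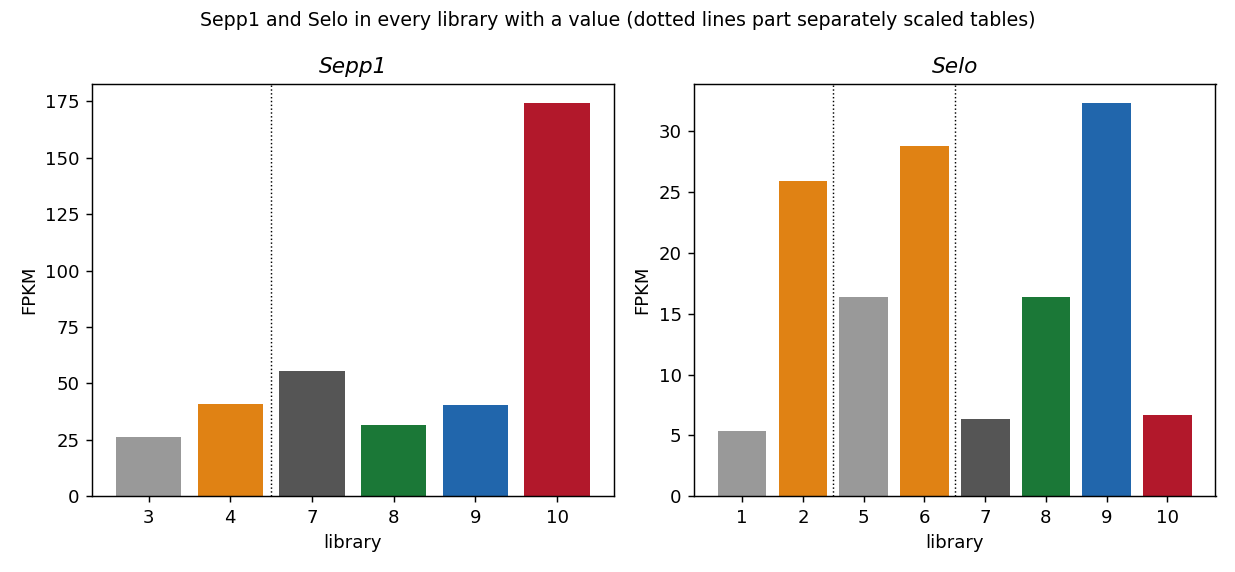
FPKM of Sepp1 and Selo (linear axes from 0), 1 bar for each library with a value, with dotted lines between separately scaled tables. Sepp1 is highest in library 10 at 174 FPKM, and Selo is highest in library 9 at 32.3 FPKM and near its library 7 level of 6.37 in library 10.

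The other 8 genes stayed close to the scramble library. Their ratios ran from -0.16 to 0.15 in 8/7, from -0.24 to 0.39 in 9/7 and from -0.20 to 0.08 in 10/7, so none was past the size rule in any of the 3. Each is given below by its role, with libraries in the order 7, 8, 9 and 10.

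The small thioredoxin-like selenoproteins are Sepw1, Selt and Selm. Sepw1, a cytosolic protein abundant in muscle, stood at 520.0, 465, 442 and 525 FPKM, with ratios of -0.16, -0.24 and 0.01. Selt, of the endoplasmic reticulum membrane, stood at 105, 116, 99.5 and 93.4 FPKM, with 0.15, -0.08 and -0.17. Selm, of the endoplasmic reticulum lumen, stood at 10.2, 9.47, 13.7 and 10.6 FPKM, with -0.10, 0.39 and 0.04. Selm in 9/7 was the widest ratio among these 8 genes, and still within the range of 95% of genes. All 3 share with Selo the cysteine codon placed 3 codons before the selenocysteine codon, and only Selo among them was past the size rule.

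Selk and Sepn1 encode membrane proteins of the endoplasmic reticulum, linked to protein palmitoylation and to calcium handling. Selk stood at 51.8, 52.6, 57.2 and 54.9 FPKM, with ratios of 0.02, 0.14 and 0.08. Sepn1, mutated in a human congenital myopathy, stood at 52.9, 49.6, 50.4 and 51.7 FPKM, with -0.09, -0.07 and -0.04. It was the flattest of the 10 genes.

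The 3 genes of selenoprotein synthesis were also level. Sephs2, whose product makes selenophosphate and is itself a selenoprotein, stood at 39.5, 36.3, 39.8 and 34.4 FPKM, with -0.12, 0.01 and -0.20. Its relative Sephs1, which holds no selenocysteine, stood at 37.1, 35.1, 34.1 and 37.5 FPKM, with -0.08, -0.12 and 0.01. Secisbp2, the SECIS-binding protein and the lowest gene of the list in library 7, stood at 5.75, 5.54, 4.75 and 5.50 FPKM, with -0.04, -0.23 and -0.06.

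**Figure D2:**
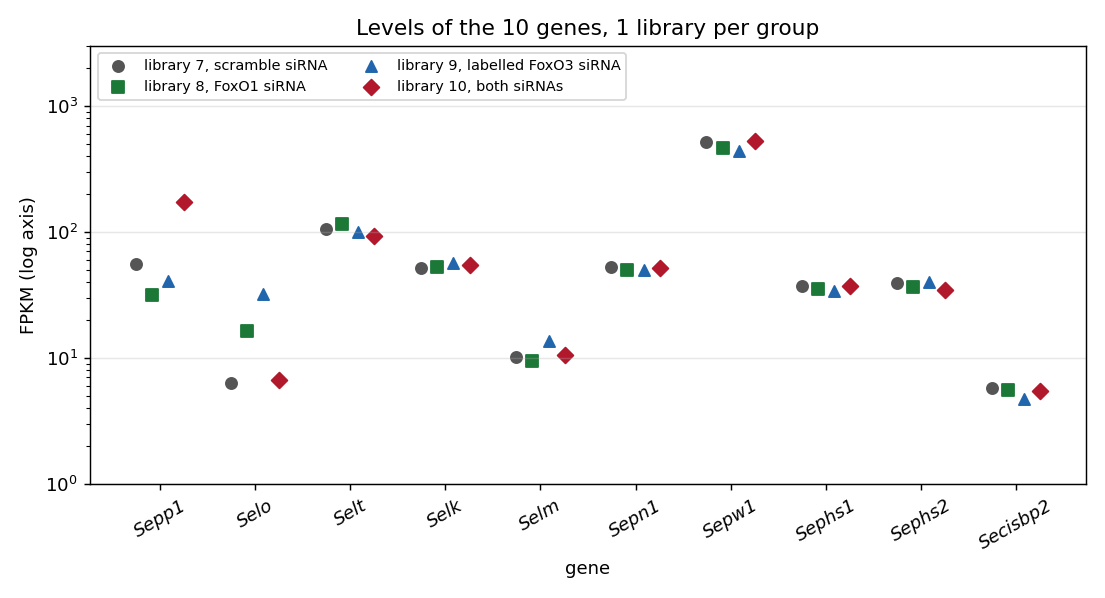
FPKM (log scale) of the 10 genes in libraries 7, 8, 9 and 10, 1 point per library. The points of Sepp1 and Selo spread over more than 5-fold, at a highest-to-lowest ratio of 5.49 and 5.07, and those of the other 8 genes lie close together.

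In 8/7 a count of 2 of the 10 genes was past the size rule, Selo higher and Sepp1 lower, where 2.68% of 12006 measured genes were past it either way. In 9/7 it was 1 of 10, Selo higher, against 4.53% of 12045. In 10/7 it was 1 of 10, Sepp1 higher, against 2.96% of 12062. The rule that chose the genes used these contrasts, so nothing is read from these counts. All 10 were measured in each comparison. Their median ratio was -0.08, -0.08 and 0.01 in 8/7, 9/7 and 10/7, beside -0.0062, -0.017 and -0.016 over all measured genes. The 3 comparisons share library 7.

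Over the 4 libraries the distance from the lowest to the highest level (log2) was 2.42 for Sepp1 and 2.17 for Selo, beside a median of 0.20 over 8989 genes. These had 5 FPKM or more in at least 1 library, 1 symbol and the authors' status OK in all 3 tables, and none was listed at 0. Symbols that start with Mir, mmu-mir, Snor, n-R, Rn or Gm and a digit, end in Rik, or are stored as a date were left out. The row of Selenoh, a selenoprotein gene described below, was left out in this way. Of the 8989 genes 1 had a wider range than Sepp1 and 3 had a wider range than Selo. Over all 9558 rows of 5 FPKM or more, 94 had a wider range than Sepp1, of which 88 were listed at 0 in a library, and 96 a wider range than Selo. Selm followed at 0.49 and Selt at 0.32. The other members lay between 0.09 for Sepn1 and 0.25 for Sepw1, on either side of the median.

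**Figure D3:**
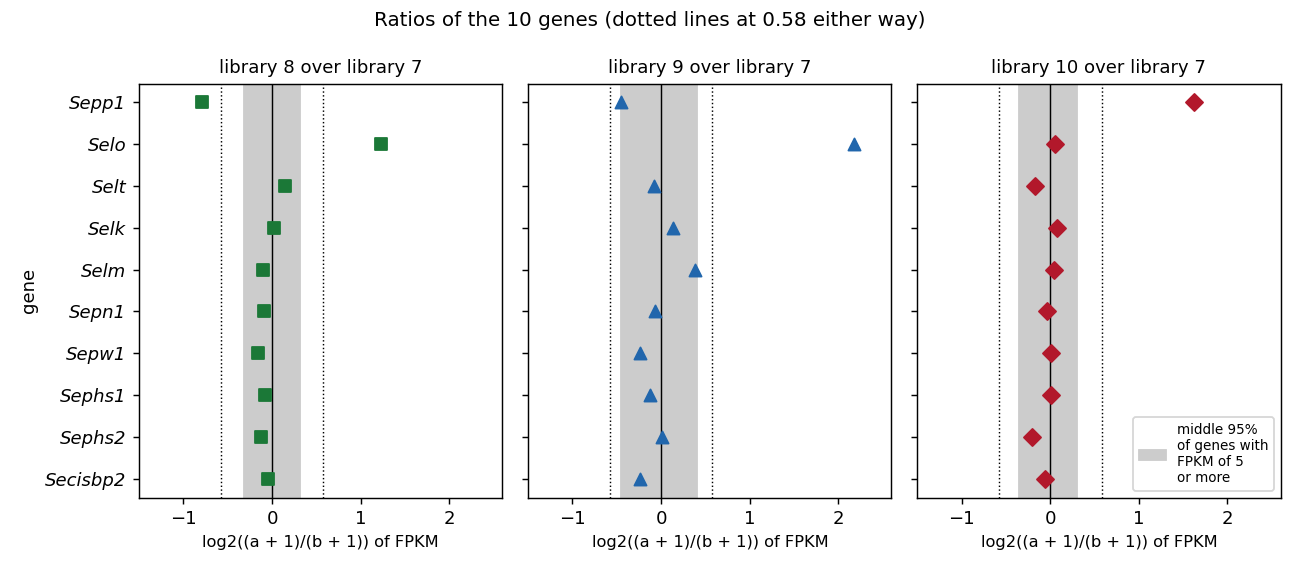
Log2 ratio to library 7 of the 10 genes in 8/7, 9/7 and 10/7, 1 point per comparison, with dotted lines at 0.58 either way and a grey band for the middle 95% of genes of 5 FPKM or more. Beyond the lines lie Selo in 8/7 and 9/7 and Sepp1 in 8/7 and 10/7, and every other point is within them.

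In library 7 the order of levels was Sepw1, Selt, Sepp1, Sepn1, Selk, Sephs2, Sephs1, Selm, Selo and Secisbp2. With no replicate, the robust spread over genes in 8/7 (0.118, log2) was used as a yardstick. It describes ratios of the same gene between libraries, not differences between genes within a library, so it is a rough guide only. By this yardstick Sepp1 and Sepn1 (0.07 apart), Sepn1 and Selk (0.03 apart), and Sephs2 and Sephs1 (0.09 apart) were not separated. A wider gap is not shown to be a real difference. In library 10 Sepp1 stood second, above Selt.

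The deposited tables give for each gene a locus, and in several selenoprotein genes it covers only part of the transcript. For each gene the coding transcript with the most selenocysteine codons was used, then the longest coding sequence, then the most exonic bases. Sepw1 and Sephs2 have 1 transcript each, and for the other genes the shares depend on this choice. Against the GENCODE M21 coding transcript on GRCm38, the locus of Sepp1 (chr15:3268547-3280508, plus strand) held all of its exonic bases. That of Selo did too, and the rows of Selo and its neighbour Tubgcp6 share 1 locus of 34004 bases. Sephs1 and Secisbp2 were complete and Selm held 99.6%. The other 5 were cut short. Sephs2 held 62.4% of its exonic bases, Sepn1 61.3%, Sepw1 45.1%, Selk 29.3% and Selt 17.9%. For Sepw1 the locus was 332 bases, chr7:15917208-15917539 on the minus strand. It held no coding base and lay outside the selenocysteine codon at chr7:15920464-15920466. For Sepn1 it touched 3 of 12 exons and left out the selenocysteine codon too. Its share of the coding bases was 23.1% for Sepn1, 79.1% for Selt and 99.6% for Selk. For Sephs2 it held the whole coding sequence.

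Loci with under 90% of the exonic bases were thus found for 5 of the 8 genes of the list with a selenocysteine codon. They were found for 10 of all 24 such genes with a row, 41.7%. Over 21487 protein-coding genes the share was 9.60%, and over the measured ones 4.90%. The exons that were counted are not given in these sources. Whether the FPKM of these 5 genes cover more than the part inside the locus was not tested, and their order against the other genes is uncertain.

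**Figure D4:**
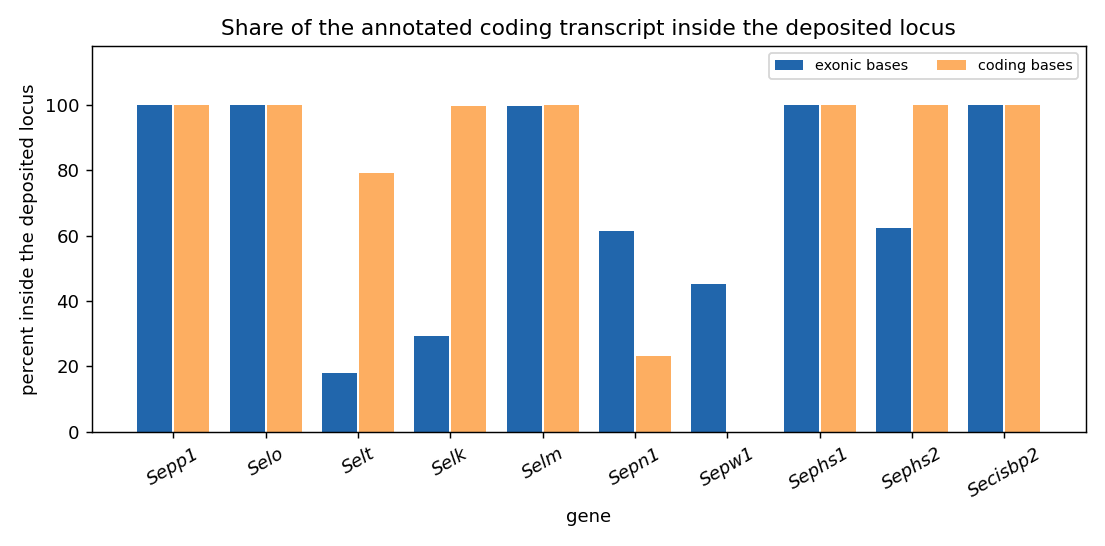
Percent of the exonic bases and of the coding bases of the GENCODE M21 coding transcript that lie inside the deposited locus, for each of the 10 genes. Exonic coverage is 17.9% for Selt and 29.3% for Selk, coding coverage is 0 for Sepw1, and Sepp1, Selo, Sephs1 and Secisbp2 are complete.

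Both Sepp1 and Selo overlap a gene on the opposite strand, and whether the libraries kept strand is not given. Of the exonic bases of Sepp1 15.4% lie in exons of Ccdc152, whose own row was listed at 0 in all 4 libraries. Of those of Selo 26.7% lie in exons of Tubgcp6, a subunit of the gamma-tubulin complex. Tubgcp6 stood at 9.33, 8.61, 8.05 and 7.79 FPKM in libraries 7, 8, 9 and 10, with ratios of -0.10, -0.19 and -0.24, so it was not higher where Selo was. Sephs2 shares 36.4% of its exonic bases with Gm44729. Whether reads of the 2 strands were told apart for these genes is thus not known.

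In the authors' deposited table each of the 10 genes had a q-value of 0.999 in all 3 comparisons. For Selo the p-value in the authors' deposited table was 0.137 in 8/7, 0.02005 in 9/7 and 0.942 in 10/7. For Sepp1 it was 0.478, 0.598 and 0.268 in the authors' deposited table. Selo in 9/7 was the only value of the 10 genes under 0.05 there. The authors' deposited table gave Foxo1, with ratios of -0.94 in 8/7 and -0.66 in 10/7, p-values of 5e-05 in 8/7 and 0.0006 in 10/7. These values compare 2 libraries and not 2 conditions.

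The size of a change per unit of the authors' test statistic shows how wide their model took each gene to be. From the authors' deposited table it was 2.13, 1.77 and 1.09 (log2) for Sepp1 in 8/7, 9/7 and 10/7, beside medians of 0.27, 0.32 and 0.28 over all genes with a statistic. In the authors' deposited table it was 0.58, 0.60 and 0.74 for Selo and 0.22, 0.25 and 0.22 for Foxo1. The narrowest of the list in the authors' deposited table was Sepw1, with 0.11, 0.13 and 0.11. Sepp1, Selk and Sepn1 lay above the 90th percentile of genes in each comparison of the authors' deposited table. What set these widths was not tested.

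**Figure D5:**
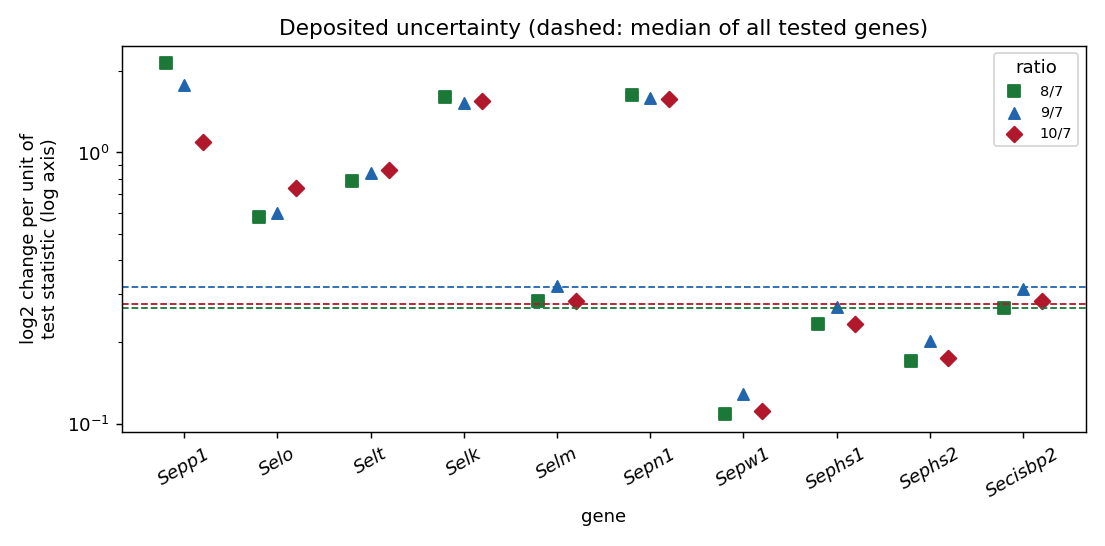
Absolute log2 change per unit of the test statistic in the authors' deposited table (log axis) for the 10 genes in 8/7, 9/7 and 10/7, with dashed lines at the median of all genes. Sepp1 reaches 2.13 in 8/7, and Sepw1 is lowest at 0.11, against medians of 0.27 to 0.32.

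The promoter of Sepp1 is shown because its human counterpart is a FoxO1 target. RefSeq windows of GRCm38.p6, from 250 bases before to 50 after a transcript start, were found for all 10 genes, 13 windows in all. They were searched on both strands for TGTTTAC, a forkhead core, and TATTTTG, part of the insulin response element. No window of the 10 genes held both. Of 32851 windows 3.65% held the first and 4.36% the second. The first was found in 2 of the 13, the third window of Sepp1 and the second of Sephs1, which are alternative starts. The second motif was also found in 2 of the 13, the first window of Sepp1 and that of Sepn1. The 1 window of Selo held neither. In the third Sepp1 window, chr15:3270727-3271026 on the plus strand, the match (capitals, the reverse complement of TGTTTAC) begins 24 bases before the start. A match of these letters is no binding site, and the data hold no measure of binding.
Sepp1, window of the downstream start: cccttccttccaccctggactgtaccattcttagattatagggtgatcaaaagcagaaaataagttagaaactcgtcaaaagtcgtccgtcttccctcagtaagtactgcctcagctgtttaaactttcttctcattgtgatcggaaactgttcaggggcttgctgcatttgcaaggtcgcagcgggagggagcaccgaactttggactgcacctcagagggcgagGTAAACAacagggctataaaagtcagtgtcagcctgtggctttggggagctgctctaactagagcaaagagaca

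The other genes of the pathway were counted by the same size rule. Of 10 genes of selenocysteine synthesis and insertion all were measured and none was past it in any comparison, with medians of -0.01, -0.02 and 0.01 in 8/7, 9/7 and 10/7. The widest among them was Pstk, the kinase that prepares the tRNA, with -0.26, -0.35 and -0.04. Eefsec, the elongation factor for selenocysteine, had -0.11, -0.25 and -0.18. Of 6 genes of selenoprotein P uptake and selenium recycling 4 were measured. Lrp1, a relative of megalin, was past the rule in 9/7, at 6.47, 5.81, 11.1 and 7.03 FPKM in libraries 7, 8, 9 and 10. Lrp2 itself stood at 14.0, 12.4, 15.4 and 12.2 FPKM, with ratios of -0.16, 0.13 and -0.19, so it differed little where Sepp1 differed most.

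Of 9 other selenoprotein genes 5 were measured in 8/7 and 4 in 9/7 and in 10/7. None was lower past the rule. Selenoh, a nucleolar protein listed under an older symbol, stood at 419, 459, 754 and 699 FPKM in libraries 7, 8, 9 and 10, with ratios of 0.13, 0.84 and 0.73. It was the 1 gene past the rule in 9/7 and in 10/7. It shared the higher level in library 9 with Selo and in library 10 with Sepp1. The deposited locus of Selenoh spans 115110 bases for a gene of 1556 bases, and what else that locus covers was not tested. Dio3, which inactivates thyroid hormone, stood at 0.284, 1.11, 0.732 and 0.424 FPKM. It counted as measured in 8/7 only through its level in library 8, so its place past the rule there is not read as a result. Of 7 glutathione peroxidase and thioredoxin reductase genes 2 were lower in 9/7. Txnrd1, listed at 0 in library 7, was not counted, since these pathway counts leave out a gene listed at 0 in either library. No other gene of the 7 was past the rule. Txnrd3 stood at 38.5, 46.0, 22.7 and 38.8 FPKM and Txnrd2 at 4.44, 3.97, 2.55 and 3.61, with 9/7 ratios of -0.74 and -0.62. Selo was highest in the library in which both were lowest. Gpx3, the plasma glutathione peroxidase made in the proximal tubule, stood at 254, 293, 333 and 331 FPKM, with 0.20, 0.39 and 0.38.

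Genes with the most similar pattern were ranked over the same 8989 genes by the mean absolute difference of log2(FPKM + 1), each gene centred on its mean over the 4 libraries. For Sepp1 the nearest were B3galt1 (0.52), Sp3os (0.53), Slc38a6 (0.53), Mettl17 (0.57) and Sap25 (0.57), beside a median of 0.77 over all genes. The nearest, B3galt1, stood at 3.79 FPKM in library 7 and 6.22 in library 10, a smaller difference than that of Sepp1. It was among the ranked genes only through library 10, and Saa3 and Zfp94 below only through library 9, so the minimum of 5 FPKM favours such patterns. For Selo they were Mia3 (0.40), Saa3 (0.48), Aldh1a1 (0.50), Zfp94 (0.52) and Ccl20 (0.53), beside a median of 0.84. Mia3 stood at 6.81, 5.96, 24.5 and 4.62 FPKM in libraries 7, 8, 9 and 10, so it shared the peak in library 9 with Selo but not the higher level in library 8. With 4 libraries these ranks describe likeness in level only.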

How the data were processed

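Total RNA of 10 libraries was sequenced as 100 nt reads, per the labels' protocols. Per the submitters' processing notes TopHat2, Cufflinks and Cuffdiff were used on mm10. Versions, settings, strandedness and annotation were not stated in the sources used here. FPKM values were deposited by the authors in 3 tables of all genes (libraries 8, 9 and 10, each with library 7) and 2 joined lists of selected genes. Per the file headers the tables also hold Cuffdiff's p-values and q-values and a test statistic, a score copied as deposited. The FPKM of library 7 differed between tables by factors of 1.00217 and 1.00334, so ratios were formed within a table, and 10/8, 10/9 and 9/8 by subtraction.

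Python 3.11.15, numpy 2.4.6, pandas 2.3.3 and matplotlib 3.10.9 computed ratios, the size rule, loci and motifs. The ratios and the count of genes past the size rule were tested on simulated data, and the loci and motifs were not. With 1 library per group no test was made and no p-value was computed. Total counts are not given, so no counting interval was computed, and relative depth came from the steps between values of genes under 0.3 FPKM. Transcripts came from GENCODE M21 and promoters from RefSeq. The genes and lists were chosen with earlier results of these data known. Named genes are the 10, Foxo1, Foxo3, up to 4 measured genes per pathway list with the widest ratio, of which the text gives a part, and the 5 genes most like Sepp1 and Selo. Tubgcp6, Ccdc152, Gm44729, Aqp1, Alb and the marker genes are named outside that rule.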

Additional observations from a re-analysis of the deposited data

How the results depend on the processing

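Alternatives were pseudocounts of 0.1 and 0.01 FPKM, no filter on low values, a minimum of 5 FPKM, centring on the median ratio, and a size rule of 1 (log2). The count of the 10 genes past the rule in 8/7 was 1 in place of 2 under the size rule of 1, since Sepp1 at -0.79 no longer passed. The counts in 9/7 and 10/7 were the same under each alternative, as was that in 8/7 under the others. All 10 genes had 5 FPKM or more in library 7, so the alternatives on the filter could not change these counts. With no replicate spread, a ratio was taken as moved when it shifted by more than the robust spread over genes, 0.118 in 8/7, 0.164 in 9/7 and in the joined pairs, and 0.127 in 10/7. Of 96 single ratios under the pseudocounts and centring 92 shifted by less, 4 moved and 0 ratios past the size rule were reversed. A pseudocount cannot change the sign of a ratio, so only centring could have reversed one. The 4 that moved were Selo in 8/7 (1.36) and 9/7 (2.34) at a pseudocount of 0.01, and in 2/1 (2.26 and 2.28) at 0.1 and 0.01. No paired analysis was possible because each group has 1 library, and for the same reason no replicate could be left out. The unknown depth sets no limit that can be stated for the weaker genes.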

Other observations

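A few selenoprotein rows outside the 10 genes have loci that hold little of the transcript. The row of Vimp, the older symbol of Selenos, has a locus of 65 bases with 5.46% of the exonic bases, and it was listed at 0 in all 4 libraries. The row of Txnrd1 has a locus of 95 bases that holds none of the exonic bases of the coding transcript used here. It was listed at 0 in libraries 7, 9 and 10 and at 126 FPKM in library 8. The locus of Ept1, the older symbol of Selenoi, held 49.2% of the exonic bases, and that of Gpx3 54.7%.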
